A study of Mus musculus with 13 samples.

Results

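Set 2 of the series held 5 of its 13 RNA libraries, each from 1 primary culture of fibroblasts grown out of the dermis of a newborn mouse. The libraries W5 and W6 came from wild-type (WT) mice, and M5, M6 and M7 from mice with G234D on both copies of Fbn1. No culture was treated, and the labels give no strain, sex, litter, passage number or age in days. The series asks whether the mutation changes the fibroblasts themselves, in particular the genes of their extracellular matrix. Set 2 was chosen by its sample labels alone, and it was described over 12060 of the 25655 genes in the tables, those at 1 TPM (transcripts per 1000000, a level scaled by gene length) or more in 2 or more of the 5 libraries.

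Fbn1 encodes fibrillin-1, a large secreted glycoprotein that assembles outside the cell into microfibrils. Microfibrils carry the elastin of elastic fibres and also hold latent complexes of transforming growth factor beta (TGF-beta), which bind them through the latent TGF-beta binding proteins. Dermal fibroblasts make these fibres together with the collagens and proteoglycans of the skin.

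The cultures carried the defining fibroblast transcripts. Col1a1, a chain of type I collagen, was between 12609 and 14553 TPM, Vim, an intermediate filament of mesenchymal cells, was between 3780 and 4021 TPM, and the receptor gene Pdgfra was between 107 and 116 TPM. Of 19 fibroblast markers only Tcf21 was listed at 0 in all 5 libraries. The Y-linked genes Ddx3y, Uty, Kdm5d and Eif2s3y were listed at 0 in all 5 as well. Each library had 11839 to 11975 genes at 1 TPM or more. TPM keep no read totals, so the depth behind each value is unknown. The root mean square of the gene differences on the log2(TPM + 1) scale was 0.204 between the WT libraries, a mean of 0.221 over the 3 pairs of G234D libraries and a mean of 0.221 over the 6 pairs of unlike genotype. Libraries of different genotype were therefore about as far apart as libraries of the same genotype.

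In the comparison of G234D with WT, which asks what differs between the genotypes in these cultures, the gene Gm45837 rose in G234D and no other gene was called. A gene was called at a Benjamini-Hochberg adjusted p under 0.05 in limma, a moderated linear model fitted to all 12060 genes on log2(TPM + 1), and 1 gene is 0.00829% of those tested. Among the uncalled genes the chemokine genes Cxcl1, Cxcl3 and Cxcl5, the adhesion gene Cdsn and the TGF-beta binding protein gene Ltbp1 were higher in every G234D library than in both WT libraries, while Tmem267, the lipocalin gene Apod, the proteoglycan gene Lum and Pde2a were lower. A difference is the G234D mean minus the WT mean of log2(TPM + 1), and for genes at low levels this scale shrinks it. The median standard error (SE) of a difference was 0.087. On this scale the 95% interval lay within log2 of 1.5 in either direction for 90.8% of genes and within log2 of 2 for 98.3%. For genes at low levels these limits cover larger fold differences in TPM.

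At an unadjusted p under 0.05 in limma, 510 genes (4.23%) were higher in G234D and 271 genes (2.25%) were lower, 781 in all. The 3 G234D libraries lay above both WT libraries for 1999 genes (16.6%) and below both for 847 genes (7.02%). Differences were positive for 7527 genes (62.4%) and negative for 4533 (37.6%), and the counts of positive and negative members of the gene lists are to be read against these shares. The excess on the higher side moved with the scaling of the libraries. With each library divided by its median ratio to the others, 317 genes were higher and 414 lower at that unadjusted p, and with quantile normalization 330 were higher and 385 lower. The median difference over all genes was 0.030 on the TPM as deposited, 0.00028 after the median-of-ratios scaling and 0.0024 after quantile normalization. Of the 12060 genes, 19 differed by more than 1 on the log2 scale, and the genotypes did not overlap for 15 of these, 6 higher and 9 lower.

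**Figure D1:**
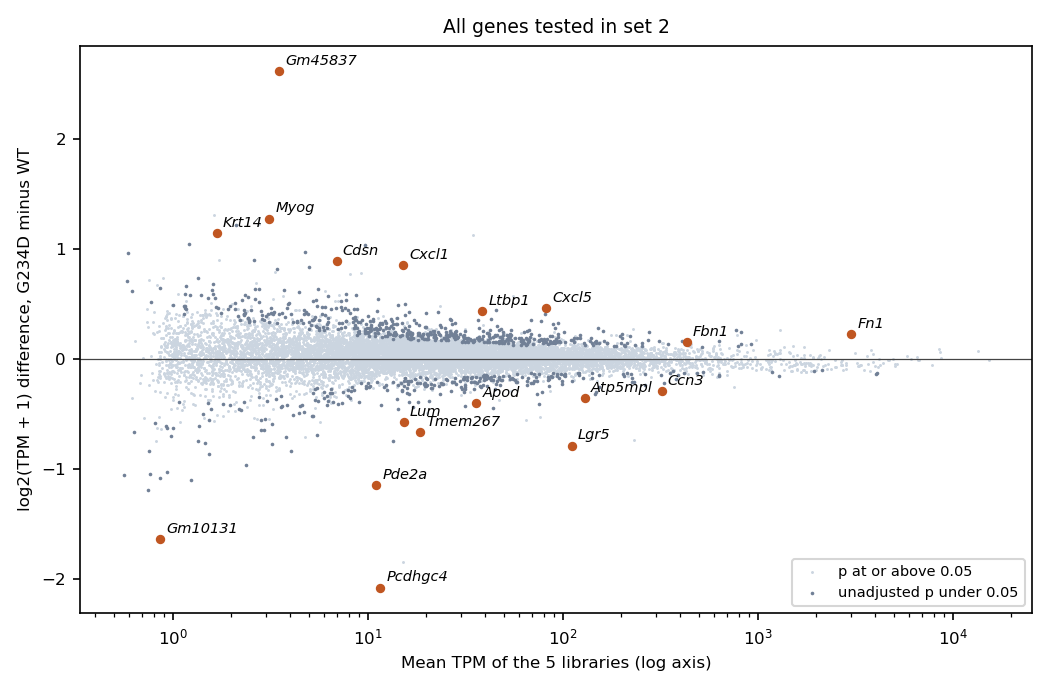
Difference of each of the 12060 genes between G234D and WT on the log2(TPM + 1) scale (vertical axis), against its mean TPM over the 5 libraries of set 2 (horizontal log axis). Dark points have an unadjusted limma p under 0.05, and orange points are named genes; Gm45837 at 2.61 is the only called gene, and most genes above 100 TPM sit close to 0.

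The called gene shares its place in the genome with Pde2a, a phosphodiesterase that breaks down cyclic nucleotides. In the mm10 annotation of GENCODE M21, Gm45837 (ENSMUSG00000030653, protein-coding) lies on the plus strand of chromosome 7 from 101410886 to 101512819, and Pde2a (ENSMUSG00000110195) on the same strand from 101421691 to 101512827. The loci share 91129 bases, which is 99.99% of the Pde2a locus. Reads from sequence that both annotations hold can be given to either gene, so the level of each gene alone is uncertain.

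Gm45837 stood at 0.120 and 0.0360 TPM in W5 and W6 and at 3.75, 7.26 and 6.32 TPM in M5, M6 and M7. The 3 G234D values were all far above the WT values, and the difference was 2.61 (SE 0.23, limma adjusted p = 0.0125). The call was lost without the filter (limma adjusted p = 0.122), without the mean-variance trend (0.152) and with all 13 libraries in the fit (0.422). It was also lost without W5 (difference 2.67, limma adjusted p = 0.174) and without W6 (2.56, 0.239), where 1 WT library is left and the G234D libraries alone give the spread. Pde2a stood at 16.0 and 17.8 TPM in WT and at 8.16, 8.83 and 4.77 TPM in G234D, lower in all 3 G234D libraries, with a difference of −1.15 (SE 0.23, limma adjusted p = 0.617). Pde2a was called when M7 was left out (difference −0.91, limma adjusted p = 0.0160) and with the replicate block (0.00195). Summed, the locus stood at 16.1 and 17.8 TPM in WT and at 11.9, 16.1 and 11.1 TPM in G234D. The sums of W5 and M6 agree to 3 digits, and the summed difference was −0.37 (SE 0.14, limma adjusted p = 0.750). With the pair counted as 1 gene, limma called 0 genes, and 509 genes higher and 271 lower had an unadjusted p under 0.05.

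Gm45837 took 0.748% and 0.202% of the summed TPM in W5 and W6, and 31.5%, 45.1% and 57.0% in M5, M6 and M7. In set 1, made of 4 WT and 4 G234D cultures of the same kind, the share did not separate the genotypes. It was 0% in W1 and W2, 34.4% in W3 and 54.7% in W4, and it was 26.3%, 35.3% and 39.8% in M1, M2 and M3 but 0.163% in M4. The share was thus either below 1% or at least 26.3% in all 13 libraries, and both kinds occurred in WT and in G234D cultures.

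**Figure D2:**
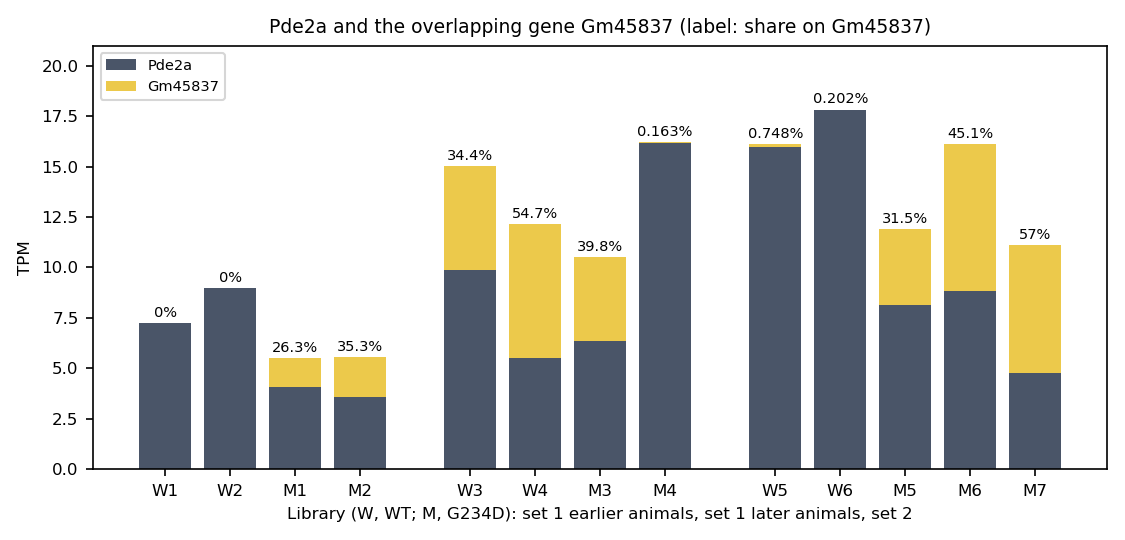
TPM of Pde2a (dark) and of the overlapping gene Gm45837 (yellow), stacked, in each of the 13 libraries; the label above a bar is the share on Gm45837. In set 2 the share is under 1% in W5 and W6 and between 31.5% and 57.0% in M5 to M7, while in set 1 W3 and W4 have high shares and M4 a low one.

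The gene with the next smallest p was Cdsn (ENSMUSG00000039518, chromosome 17 from 35552128 to 35557180), which encodes corneodesmosin, an adhesion protein of cornified skin cells. Its level was 4.28 and 4.23 TPM in W5 and W6 and at 9.05, 7.92 and 9.18 TPM in M5, M6 and M7. The difference was 0.88 (SE 0.11, limma adjusted p = 0.0899), so it was not called. Cdsn was called when the spread was shared with set 1 in a fit of all 13 libraries (limma adjusted p = 0.00684), with the replicate number as a block (0.0141) and without M6 (0.0284). Its limma adjusted p was 0.398 without W5, 0.438 without W6, 0.618 without M5 and 0.0813 without M7, and its difference stayed between 0.85 and 0.95 in these fits.

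Of the other genes with the smallest p on the higher side, several encode proteins of the cell surface. Nt5e encodes the surface enzyme CD73, which makes adenosine. Nt5e stood at 8.26 and 9.06 TPM in WT and at 13.6, 12.9 and 12.8 TPM in G234D, a difference of 0.55. Cd24a, a small glycosylated surface protein, stood at 19.1 and 18.5 TPM in WT and at 25.9, 23.8 and 27.1 TPM in G234D, a difference of 0.42. Il1rl1, the receptor of interleukin-33, stood at 34.9 and 27.4 TPM in WT and at 41.5, 41.4 and 42.6 TPM in G234D, also 0.42. In these 3 genes the G234D libraries lay close together and above both WT libraries. Steap1, a metalloreductase, differed by 0.35, and Tnfrsf23, a decoy receptor of the TNF receptor family, by 0.36. Pde7b, a phosphodiesterase of cyclic AMP, differed by 0.54, and Ggcx, the vitamin K-dependent carboxylase, by 0.27. The limma adjusted p of these genes lay between 0.244 and 0.617.

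The lower side was led by Tmem267, a membrane protein gene, at 26.8 and 21.9 TPM in WT and 14.3, 16.2 and 14.2 TPM in G234D. Its difference was −0.67 (SE 0.10, limma adjusted p = 0.203). Atp5mpl, a small subunit of the mitochondrial ATP synthase, stood at 147 and 153 TPM in WT and at 117, 122 and 112 TPM in G234D, a difference of −0.36. Apod, a secreted lipid carrier made by quiescent fibroblasts, stood at 41.8 and 43.3 TPM in WT and at 30.8, 32.8 and 32.0 TPM in G234D, a difference of −0.41. For each of the 3 genes the gap between the genotypes was wider than the spread within either. Mylk, the myosin light chain kinase, differed by −0.40, Cdkn2b, an inhibitor of the cell cycle kinases CDK4 and CDK6, by −0.32, Aldh1a3, an enzyme of retinoic acid synthesis, by −0.69 and Ccn3, a matricellular protein, by −0.30. Bend5 differed by −0.59 and Srpx by −0.41, and both loci overlap another gene on the same strand, Agbl4 and Rpgr, each at under 3 TPM. The limma adjusted p of these 6 genes lay between 0.520 and 0.617.

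The histone genes H4c8 and H3c8 came up on opposite sides. H4c8 stood at 2.91 and 3.17 TPM in WT and at 5.60, 5.56 and 7.65 TPM in G234D, a difference of 0.84, while H3c8 stood at 1.41 and 1.12 TPM in WT and at 0, 0.274 and 0 TPM in G234D, a difference of −1.06. Both belong to a family of near-identical copies, so their values are uncertain. Of 28 core and linker histone genes tested, 14 were positive and 14 negative with a median of 0.0075. Defb25, a defensin gene, was also at very low levels, at 1.70 and 1.53 TPM in WT and at 0, 0.496 and 0 TPM in G234D.

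**Figure D3:**
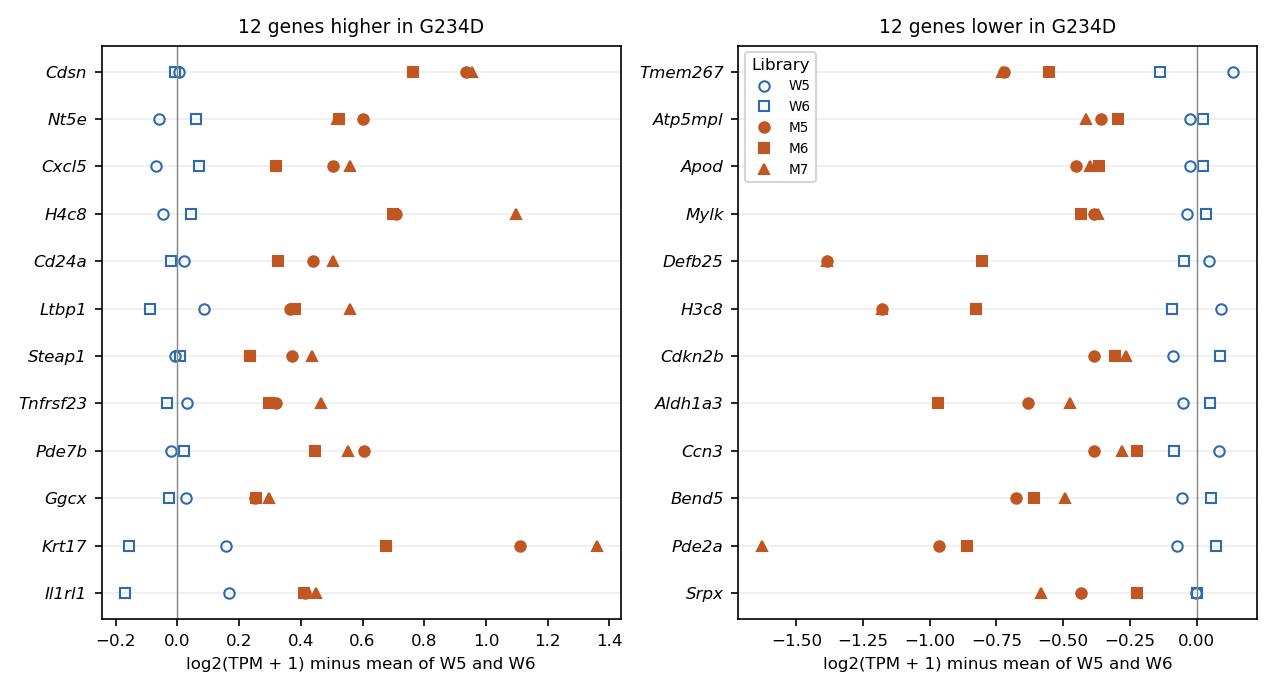
The 12 genes with the smallest p on each side, symbols of predicted genes passed over, with every library of set 2 as log2(TPM + 1) minus the mean of W5 and W6 (open blue, WT; filled orange, G234D). The G234D libraries do not overlap the WT libraries for any of these 24 genes; choosing genes by a small p favours this, and none of the 24 was called.

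Among genes at a mean of 5 TPM or more whose genotypes did not overlap, the largest differences often came with an annotated overlap or a copy. Gemin4, part of the complex that assembles spliceosomal particles, stood at 3.34 and 8.46 TPM in WT and at 13.2, 13.5 and 9.91 TPM in G234D, a difference of 1.03, and 100% of its locus lies within Glod4 on the same strand. Pcdhgc4, a gamma protocadherin, stood at 19.1 and 23.9 TPM in WT and at 8.89, 4.19 and 1.86 TPM in G234D, a difference of −2.08, and its locus is shared with the other genes of the gamma cluster. Rps27rt, by its name a retrotransposed copy of a ribosomal protein gene, differed by −0.74. The levels of these 3 genes are uncertain for that reason. Gm10131, annotated as a retrogene and named here after its values were seen, stood at 2.71 and 1.62 TPM in WT and was listed at 0 in all 3 G234D libraries.

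Lgr5, a receptor that boosts Wnt signalling, stood at 140 and 150 TPM in WT and at 78.1, 134 and 55.1 TPM in G234D. M6 was near the WT values, and the difference was −0.79 with an SE of 0.45. Gjb2, the gap junction protein connexin 26, stood at 16.1 and 19.9 TPM in WT and at 8.32, 14.4 and 8.90 TPM in G234D, a difference of −0.75. In both genes M6 lay nearest to WT, and without M6 limma called 14 genes in place of 1, 8 of them higher and 6 lower. Those 14 included Gjb2, Cdsn, Cxcl1, Cxcl5 and Srpx.

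Cxcl1, Cxcl3 and Cxcl5 are neighbouring chemokine genes on the plus strand of chromosome 5 whose products draw neutrophils through the receptor CXCR2. Ppbp, which lies between Cxcl5 and Cxcl3, differed by −0.019 with overlapping genotypes. The bases just before the start sites of Cxcl1 and Cxcl3 are printed here, and Cxcl5 had no entry among the promoters used. They come from RefSeq on GRCm38.p6, 120 bases each, 5′ to 3′ on the plus strand. Capitals mark matches, on either strand, to GGG, any 2 bases and TTTCC, a form of the NF-kB motif, and to TATAAA, the TATA box.
Cxcl1 (chr5:90891125-90891244): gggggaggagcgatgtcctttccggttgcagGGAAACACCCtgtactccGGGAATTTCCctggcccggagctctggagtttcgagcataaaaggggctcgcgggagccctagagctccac
Cxcl3 (chr5:90785981-90786100): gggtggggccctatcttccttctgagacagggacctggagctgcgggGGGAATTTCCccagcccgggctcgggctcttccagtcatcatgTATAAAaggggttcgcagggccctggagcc

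The run GGGAATTTCC begins 71 bases before the start in Cxcl1 and 73 bases before it in Cxcl3. Cxcl1 holds another match, on the minus strand, that begins 89 bases before the start and does not overlap the first, and in Cxcl3 the TATA box begins 30 bases before the start. In the 300-base windows of 32851 RefSeq promoters, 535 (1.63%) held this NF-kB form on either strand and 4473 (13.6%) held TATAAA. The AP-1 motif, TGA, any base and TCA, was searched as well and stood in 2565 (7.81%), but not in the windows of Cxcl1 and Cxcl3. The windows of Nr4a1, Apod and Fbn1 were searched too and held no match to these motifs. Such matches describe the letters and do not show that a factor was bound.

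Cxcl1 (ENSMUSG00000029380) stood at 8.62 and 11.1 TPM in W5 and W6 and at 19.8, 14.6 and 21.9 TPM in M5, M6 and M7. The difference was 0.85 (SE 0.17, limma adjusted p = 0.617), and M6 was the lowest of the G234D libraries. Cxcl5 stood at 63.9 and 70.4 TPM in WT and at 95.5, 83.8 and 99.2 TPM in G234D, a difference of 0.46 (SE 0.080, limma adjusted p = 0.336). Cxcl3 stood at 6.25 and 5.13 TPM in WT and at 10.4, 9.58 and 7.36 TPM in G234D, a difference of 0.59. The genotypes did not overlap for any of the 3 genes, and none was called. Of the chemokine and cytokine genes tested, 22.6% were higher and 6.45% lower without overlap, beside 16.6% and 7.02% of all genes.

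Of 31 chemokine and cytokine genes tested, 0 were called and 20 were positive (64.5%, beside 62.4% of all genes) and 11 negative, with a median of 0.055 beside 0.030 over all genes. At an unadjusted limma p under 0.05 there were 6 on the higher side (Cxcl5, Il1rl1, Cxcl1, Ptges, Il6 and Lif), 19.4% beside 4.23% of all genes, and 1 on the lower side. Il6, an inflammatory cytokine, stood at 3.44 and 3.87 TPM in WT and at 4.99, 4.43 and 6.81 TPM in G234D. The gene on the lower side was Cx3cl1, a membrane-bound chemokine, with a difference of −0.32. Of 43 interferon-stimulated genes 13 were positive and 30 negative, with a median of −0.028. Cxcl10, a chemokine induced by interferon gamma, stood at 7.04 and 6.08 TPM in WT and at 3.47, 4.20 and 5.30 TPM in G234D, a difference of −0.52. The median of the interferon list against WT was 0.0010 in M5, −0.30 in M6 and 0.21 in M7, so the G234D libraries differed more from each other than from WT.

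The mutated gene, Fbn1 (ENSMUSG00000027204), lies on the minus strand of chromosome 2 between 125300594 and 125507993. Fbn1 stood at 411 and 400 TPM in W5 and W6 and at 433, 433 and 489 TPM in M5, M6 and M7. M7 was the highest, and the difference of 0.15 (SE 0.062, limma adjusted p = 0.750) was not called. A point mutation does not remove the transcript, so the Fbn1 level is no test of the labelled genotypes. Of 163 tested genes within 10 Mb of Fbn1 on the annotation, a list added after the data were seen, 102 were positive (62.6%, beside 62.4% of all genes) and 61 negative, with a median of 0.022. At an unadjusted p under 0.05 there were 4 higher (2.45%, beside 4.23% of all genes) and 3 lower (1.84%, beside 2.25%).

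Of 31 microfibril and elastic fibre genes, 0 were called, 19 were positive and 12 negative, with a median of 0.024. Ltbp1 (chromosome 17), which tethers latent TGF-beta to microfibrils, stood at 33.6 and 29.7 TPM in WT and at 41.0, 41.5 and 47.1 TPM in G234D. Its difference was 0.44 (SE 0.083, limma adjusted p = 0.461). Together with Fbn1 it made up the 2 genes of the list at an unadjusted p under 0.05, both higher (6.45%, beside 4.23% of all genes). Its relatives stood closer to WT, Ltbp2 at −0.011 and Ltbp3 at 0.047. Fbn2, the fibrillin of developing tissue, differed by 0.15 with overlapping genotypes. Eln, the gene of tropoelastin, stood at 79.5 and 41.4 TPM in WT and at 59.3, 45.0 and 73.8 TPM in G234D. The WT libraries alone spanned the whole G234D range, and the 95% interval of the difference ran from −1.11 to 1.15. Fbln5 and Loxl1, which help place and crosslink elastin, differed by −0.11 and −0.055 with overlapping genotypes.

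Among the 10 fibrillar collagen genes 0 were called and 0 had an unadjusted p under 0.05. Col1a1 stood at 13114 and 13079 TPM in WT and at 14173, 12609 and 14553 TPM in G234D, with M6 below both WT libraries and M5 and M7 above. Its interval ran from −0.070 to 0.21. Of 17 other collagens 9 were positive and 8 negative. Col4a1 and Col4a2, the chains of basement membrane collagen, differed by 0.13 and 0.16 and Col12a1, which sits on the surface of collagen fibrils, by 0.26. Col15a1, a collagen near basement membranes, differed by −0.29 and Col28a1 by −0.42. The genotypes did not overlap for these 5 genes. Of the 17 other collagens 6 were higher without overlap (35.3%, beside 16.6% of all genes) and 3 lower (17.6%, beside 7.02%). At an unadjusted limma p under 0.05 there were 5 higher (29.4%, beside 4.23% of all genes) and 3 lower (17.6%, beside 2.25%).

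The proteoglycan genes also went both ways, 13 positive and 12 negative of 25. Lum, the small leucine-rich proteoglycan lumican that binds collagen fibrils, stood at 18.7 and 19.7 TPM in WT and at 13.9, 9.85 and 14.4 TPM in G234D, a difference of −0.58 (SE 0.15, limma adjusted p = 0.617). Fmod, its relative fibromodulin, stood at 164 and 170 TPM in WT and at 119, 133 and 151 TPM in G234D, a difference of −0.32. Hspg2, the basement membrane proteoglycan perlecan, differed by 0.28. Fn1, fibronectin, was the most abundant of the glycoproteins named here, at 2868 and 2619 TPM in WT and 2948, 3221 and 3439 TPM in G234D, a difference of 0.22 (SE 0.070, limma adjusted p = 0.741). The genotypes did not overlap for any of these 4 genes. Of the 25 proteoglycan genes 3 were higher without overlap (12%, beside 16.6% of all genes) and 3 lower (12%, beside 7.02%). Of 45 matrix protease and inhibitor genes 25 were positive and 20 negative, with Mmp9, a gelatinase, at 0.56 and the carboxypeptidase Cpz at 0.42 on the higher side and the stromelysin Mmp11 at −0.21 on the lower side.

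The genes of TGF-beta signalling were close to WT. Of 28 ligands, receptors and Smads 17 were positive and 11 negative with a median of 0.037, and of 30 target genes 16 were positive and 14 negative with a median of 0.0096. Pmepa1, a target that dampens Smad signalling, differed by −0.16. In the bone morphogenetic protein pathway Grem1, an antagonist, differed by 0.15, and Id3, a target, by −0.15. Of 30 Wnt pathway genes 15 were positive and 15 negative, and Wnt5a, a non-canonical ligand, stood at 41.0 and 42.3 TPM in WT and at 49.3, 45.3 and 56.7 TPM in G234D. None of these genes was called. For the target genes and the Wnt pathway the sign of the median changed with the scaling or with a left-out library, as it did for the microfibril, proteoglycan, interferon and cell cycle lists, so no direction is given for them.

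In some lists of secretory and metabolic genes the share of positive members was above the 62.4% of all genes, although the differences were small. Of 28 genes of endoplasmic reticulum (ER) chaperones and the unfolded protein response 24 were positive (85.7%) and 4 negative, with a median of 0.068, and 13 were higher without overlap (46.4%, beside 16.6% of all genes). Syvn1, a ubiquitin ligase of ER-associated degradation, stood at 42.8 and 45.7 TPM in WT and at 51.2, 53.3 and 53.4 TPM in G234D, a difference of 0.25. Hspa5, the ER chaperone BiP, differed by only 0.073. Of 26 genes of the amino acid response and transport 23 were positive (88.5%) and 3 negative, with a median of 0.084. Chac1, which degrades glutathione and is induced by ATF4, stood at 49.1 and 48.1 TPM in WT and at 57.0, 61.7 and 56.5 TPM in G234D, a difference of 0.26. It belongs to both lists.

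Of 30 genes for collagen folding, hydroxylation, export and trimming 25 were positive (83.3%, beside 62.4% of all genes) and 5 negative, with a median of 0.078. Sec23a and Mia3, which carry procollagen out of the ER, differed by 0.16 and 0.15, and P3h1, a prolyl hydroxylase, by 0.14. Of 34 cholesterol and fatty acid synthesis genes 28 were positive (82.4%) and 6 negative, with a median of 0.074, and the list median against WT was −0.020 in M5, 0.18 in M6 and 0.023 in M7. Elovl6, a fatty acid elongase, differed by 0.22. No gene of these 4 lists was called. The medians of the first 3 lists stayed above 0 in 9 of 9 settings of scaling, pseudocount and left-out library, and that of the cholesterol list in 8 of 9. The median of all genes was itself 0.030 on the deposited TPM, and it was not recorded with a library left out. Other lists also stayed above 0 in 9 of 9 settings, such as the TGF-beta ligands, receptors and Smads with a median of 0.037.

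The immediate early genes, which respond within minutes to serum or stress, were 26 positive (89.7%, beside 62.4% of all genes) and 3 negative of 29, with a median of 0.072. Nr4a1, an orphan nuclear receptor, stood at 34.4 and 39.8 TPM in WT and at 50.1, 45.5 and 57.4 TPM in G234D, a difference of 0.45 (SE 0.10, limma adjusted p = 0.617). Dusp6, a phosphatase of ERK kinases, stood at 20.7 and 25.0 TPM in WT and at 29.7, 28.6 and 29.5 TPM in G234D, a difference of 0.35. W5 was the lowest library in both genes. The list median against WT was 0.14 in M5, −0.0040 in M6 and 0.28 in M7, and without W6 the fitted median was 0.25.

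Cytosolic ribosomal protein genes stood on the other side. Of 81 tested, 79 were negative (97.5%, beside 37.6% of all genes) and 2 positive, with a median of −0.066, and 24 were lower without overlap (29.6%, beside 7.02% of all genes). Each difference was small, from −0.16 to 0.035. Fau, a ribosomal protein made as a fusion with a ubiquitin-like domain, stood at 1328 and 1429 TPM in WT and at 1271, 1232 and 1200 TPM in G234D, a difference of −0.16. Together the 81 genes took 160260 and 168700 TPM in W5 and W6 and 163770, 156020 and 151070 TPM in M5, M6 and M7, so M5 lay between the WT libraries. Of 57 nuclear genes of the respiratory chain 42 were negative (73.7%) and 15 positive, with a median of −0.043, while of 43 cell cycle genes 23 were positive and 20 negative, with a median of 0.0035 and 0 at an unadjusted p under 0.05. The ribosomal and respiratory medians were below 0 in 9 of 9 settings.

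**Figure D4:**
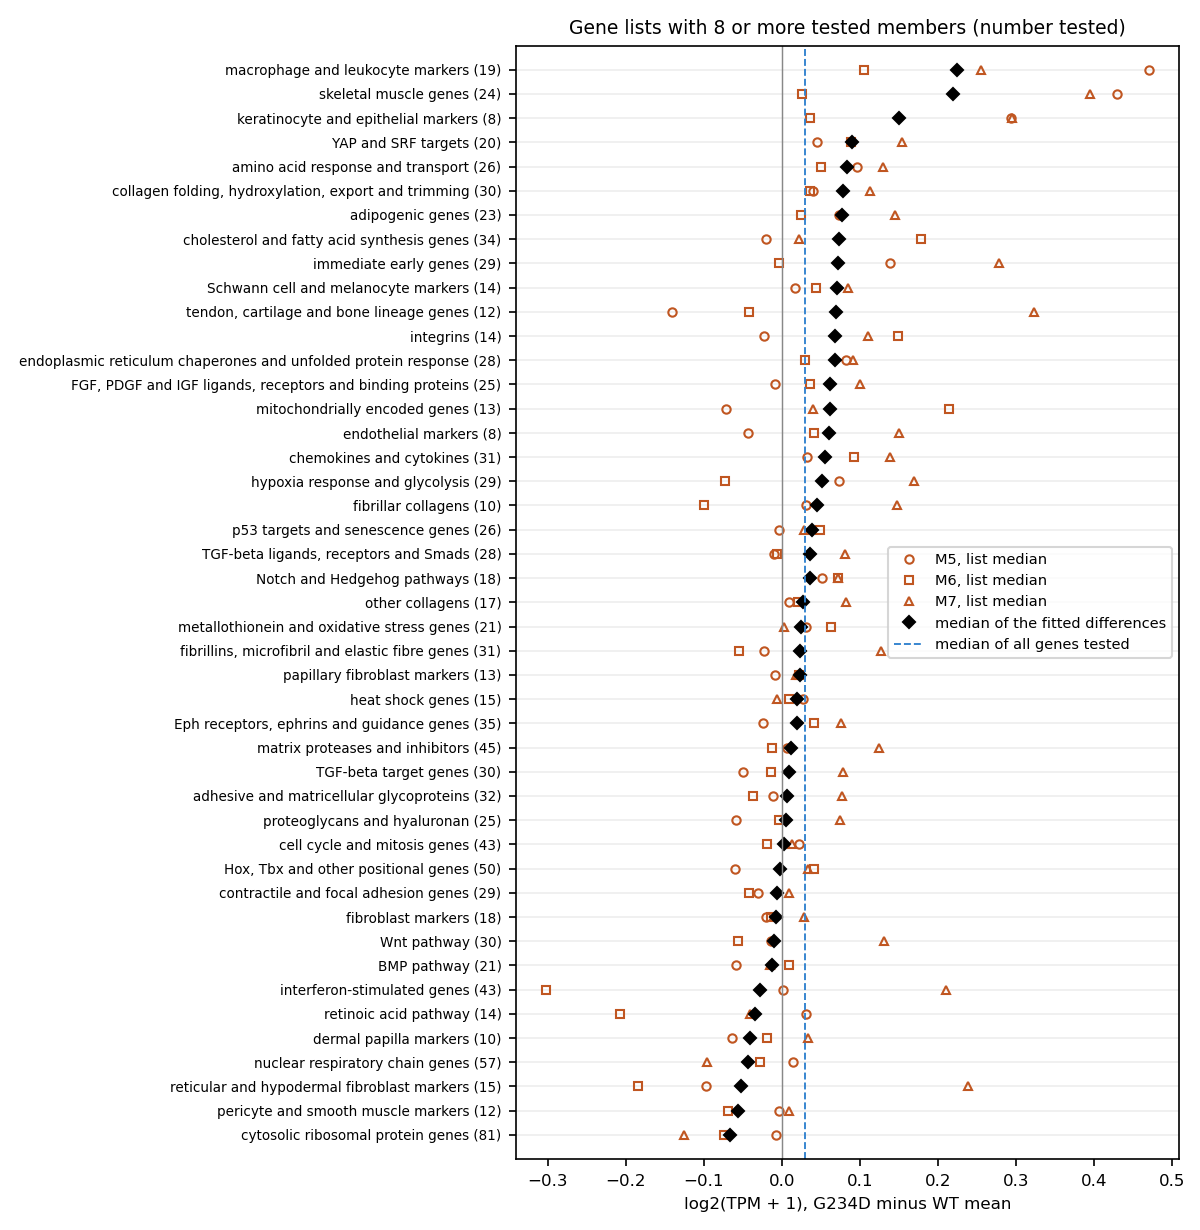
Median difference of each gene list with 8 or more tested members (number in brackets), on the log2(TPM + 1) scale against the WT mean, for M5, M6 and M7 (open symbols) and for the fitted difference (black diamond); the dashed line is the median of all 12060 genes. Macrophage, muscle and keratinocyte markers stand farthest to the right and ribosomal protein genes farthest to the left, and M6 lies closer to 0 than M5 and M7 for the first 3.

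Markers of skeletal muscle, macrophages and keratinocytes had larger medians than the highest of the matrix lists, collagen folding at 0.078. The medians of Schwann cell and melanocyte markers, 0.071, and of endothelial markers, 0.060, were below it but above most matrix lists. Pericyte and smooth muscle markers had a median of −0.056. The 2 erythroid and platelet genes tested had a median of 0.22, with 1 positive and 1 negative. In such bulk cultures more cells of a type and more RNA per cell cannot be told apart. Of 24 skeletal muscle genes tested 21 were positive (87.5%, beside 62.4% of all genes) and 3 negative with a median of 0.22, and their summed level over 36 genes was 192.6 and 204 TPM in WT and between 199.7 and 268.1 TPM in G234D. Myog, a master regulator of muscle differentiation, stood at 1.42 and 0.897 TPM in WT and at 4.67, 2.33 and 6.35 TPM in G234D, a difference of 1.27 (SE 0.32, limma adjusted p = 0.617). Tnnc2, troponin C of fast muscle, stood at 3.91 and 4.68 TPM in WT and at 12.2, 7.47 and 6.98 TPM in G234D, a difference of 0.87, and 59.2% of its locus lies opposite Ube2c, which matters if reads were counted without strand. Actc1, the cardiac and embryonic actin, stood at 6.0 and 5.8 TPM in WT and at 12.4, 6.46 and 15.7 TPM in G234D. M6 was the G234D library nearest to WT for Myog and Actc1. The list median against WT was 0.43 in M5, 0.026 in M6 and 0.39 in M7.

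Of 19 macrophage and leukocyte markers tested 18 were positive (94.7%, beside 62.4% of all genes) and 1 negative with a median of 0.22. Their summed level over 26 genes was 138.8 and 143.4 TPM in WT and between 150.8 and 213.1 TPM in G234D, and Cd163 was listed at 0 in all 5 libraries. Lyz2, the lysozyme of myeloid cells, stood at 64.5 and 67.5 TPM in WT and at 97.9, 71.7 and 84.6 TPM in G234D, and C1qb, a complement subunit made by macrophages, differed by 0.58. Keratinocyte markers were at low levels, with 13 of 23 below 1 TPM in all 5 libraries and Flg at 0. Of the 8 tested 5 were positive (62.5%) and 3 negative, among them Perp, a desmosomal protein, at −0.22 and Sfn, a 14-3-3 protein of epithelia, at −0.16. Their summed level was 25.3 and 27.9 TPM in WT and between 29.0 and 37.1 TPM in G234D. Krt14, a keratin of basal epidermis, stood at 0.367 and 0.614 TPM in WT and at 3.96, 1.11 and 2.37 TPM in G234D, and Krt17, a keratin of hair follicles, at 0.482 and 0.192 TPM in WT and 1.87, 1.12 and 2.41 TPM in G234D. None of these genes was called. M6 was the lowest G234D library for these marker sums, for Cdsn, a gene of cornified cells, and for Cxcl1 and Cxcl5. Cxcl3 was lowest in M7, and Cdsn in M6, at 7.92 TPM, still stood well above 4.28 and 4.23 TPM in WT. The part of other cell types in the differences of Cdsn and the chemokine genes was not tested.

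Of 21 Schwann cell and melanocyte genes summed, the level was 46.5 and 47.7 TPM in WT and between 49.9 and 56.1 TPM in G234D, and 8 of 11 erythroid and platelet genes were listed at 0 in all 5 libraries. Within the fibroblast lists the values were mixed. Of 13 papillary markers tested 7 were positive (53.8%, beside 62.4% of all genes) and 6 negative. Of 15 reticular and hypodermal markers 5 were positive (33.3%) and 10 negative. Lef1, on the papillary list, differed by −0.38, and Limch1, on the reticular list, by 0.61. Crabp1, a retinoic acid binding protein of the papillary dermis and its condensates, stood at 694 and 785 TPM in WT and at 836, 914 and 875 TPM in G234D, a difference of 0.24. Fgf7, the keratinocyte growth factor, stood at 59.3 and 58.0 TPM in WT and at 77.9, 66.3 and 83.0 TPM in G234D, a difference of 0.36. Dlk1, a marker of the reticular lineage, stood at 7.66 and 7.22 TPM in WT and at 4.94, 6.23 and 5.31 TPM in G234D, a difference of −0.38. The genotypes did not overlap for Lef1, Limch1, Crabp1, Fgf7 or Dlk1, and none was called. Without overlap, 23.1% of the papillary markers were higher and 15.4% lower, beside 16.6% and 7.02% of all genes. For the reticular and hypodermal markers these shares were 13.3% and 6.67%.

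Set 1 allows the same contrast in other animals, with 4 cultures of each genotype whose animal numbers fall into an earlier and a later group, here a term of the fit. The sets were unlike in Y-linked expression, which was listed at 0 throughout set 2. In set 1 Eif2s3y stood at 60.8, 0, 59.7 and 0 TPM in W1 to W4. It stood at 62.1, 60.9, 59.5 and 0.478 TPM in M1 to M4, and Ddx3y, Uty and Kdm5d followed the same pattern. Set 1 was therefore mixed and not balanced between the genotypes in Y-linked expression, and the part of this in the comparison of the sets was not tested. Of 11797 genes tested in both sets, 5787 (49.1%) had the same sign. Of the 758 at an unadjusted limma p under 0.05 in set 2, 393 (51.8%) had the same sign in set 1. At that p in both sets there were 94 genes, 12.4% of the 758 in set 2 and 8.18% of the 1149 in set 1, beside 9.74% of all genes at that p in set 1. Of these 94, 49 had the same sign and 45 the opposite sign.

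The test of the difference between the sets, an interaction term in limma over 12168 genes, called 1 gene, Col7a1 (0.00822%), and 976 had an unadjusted p under 0.05. Col7a1 encodes the anchoring fibrils that fix the epidermis to the dermis. Its level in set 2 was 52.9 and 51.3 TPM in WT and at 61.3, 54.1 and 63.8 TPM in G234D, a difference of 0.19 (SE 0.075). In set 1 it fell by 0.57 in G234D and was the only gene called there, 1 of 11905 (0.0084%), with a limma adjusted p of 0.0283. The sets differed by 0.76 (limma adjusted p = 0.0410), a call that was lost with set 1 as 1 group and without the robust step of limma, and the call in set 1 was lost without its animal groups.

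Other leading genes of set 2 also had unlike values in set 1, where the test did not call the difference between the sets. Ltbp1 differed by 0.44 in set 2 and by −0.45 in set 1, and Apod by −0.41 and 1.26. Cxcl1 differed by 0.85 in set 2 and by −0.042 in set 1, and Cdsn by 0.88 and 0.098. Muscle genes had a median of 0.22 in set 2 and 0.90 in set 1, and macrophage markers 0.22 and 0.55. Within set 1, Myog differed by 3.27 in the earlier animals and −0.75 in the later ones, and Tnnc2 by 1.90 and 0.39. Other lists had set 1 medians of −0.012 (ER chaperones), −0.018 (amino acid response), 0.012 (collagen folding) and −0.17 (cholesterol and fatty acid synthesis). The set 1 median was 0.012 for the immediate early genes, 0.019 for the ribosomal genes and 0.0055 for the nuclear respiratory genes. Genes with the same sign and an unadjusted p under 0.05 in both sets included Cpz, with 0.42 and 0.71, Slc7a8, a neutral amino acid transporter, with 0.56 and 0.50, Pde7b, with 0.54 and 0.37, Fn1, with 0.22 and 0.19, and Bok, a BCL2 relative, with −0.25 and −0.26. Wfdc17, a secreted inhibitor expressed by activated macrophages, differed by 1.22 and 0.90.

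**Figure D5:**
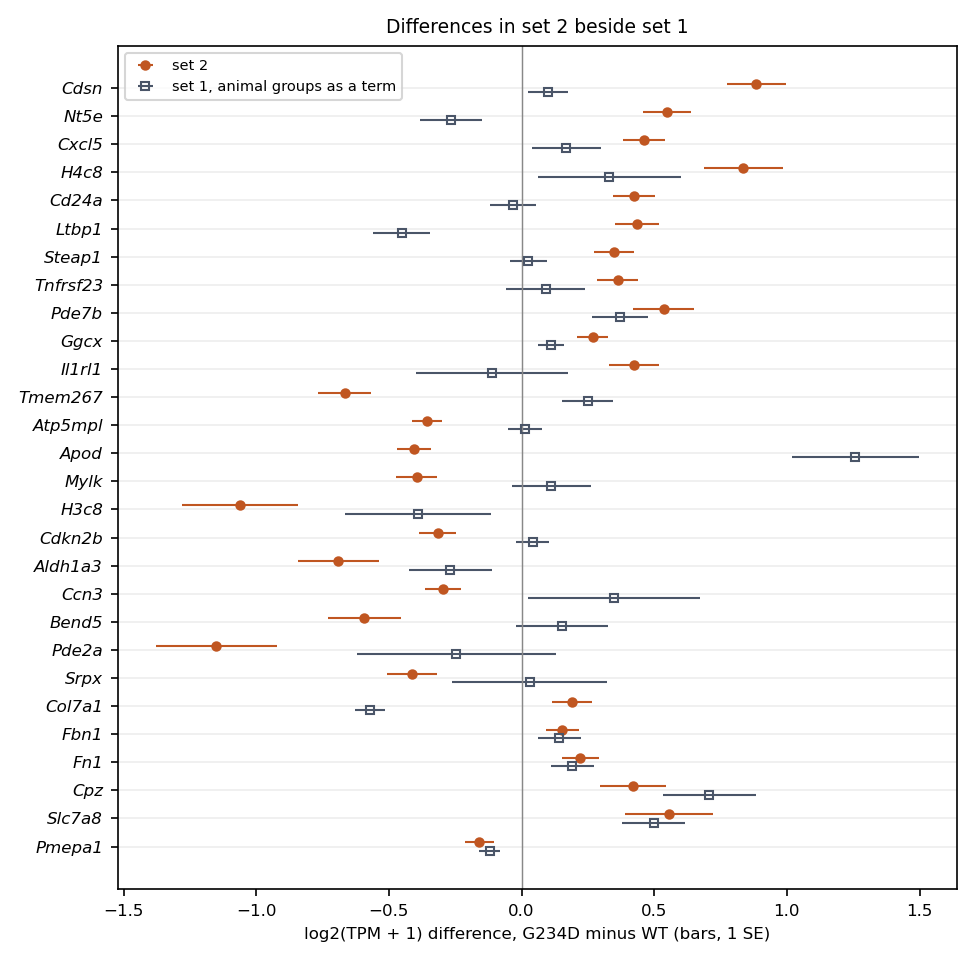
Differences between G234D and WT on the log2(TPM + 1) scale with bars of 1 SE, in set 2 (orange circles) and in set 1 with its animal groups as a term (open squares). Fn1, Cpz, Slc7a8 and Pmepa1 lie on the same side in both sets, while Col7a1, Ltbp1 and Apod lie on opposite sides. Fn1, Cpz, Slc7a8 and Pmepa1 belong to the genes with the same sign and an unadjusted limma p under 0.05 in both sets. Their agreement therefore follows from that selection. Of the 94 genes at that p in both sets, 49 had the same sign and 45 the opposite sign.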

How the data were processed

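Total RNA was purified on columns and made into stranded libraries, per the labels' protocols, and the submitters' processing notes name the build mm10. Which aligner, counting tool, strand setting and annotation were used is not given in the sources used here. Per the file headers, the authors deposited TPM; in each library these sum to 1000000 over 25655 genes, so they carry no depth, and the number of cultures sets the precision. Symbols and identifiers are paired in the set 2 tables, and 25600 identifiers matched GENCODE M21. Per the series text the cultures came from separate mice, which are the replicates.

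Genes at 1 TPM or more in 2 or more libraries were tested on log2(TPM + 1) with limma 3.58.1 (R 4.3.3) using trend and robust empirical Bayes, adjusted over all genes tested. The members, the 48 gene lists and the rule for named genes were chosen with earlier results of these data known, and lists are described by counts and medians without a test; the list of replication-dependent histones matched 0 symbols and was replaced by 1 with current symbols, added after the data were seen. The rule named Fbn1, the 12 smallest p and the 6 largest differences in each direction, the 3 smallest p of each list, the 5 smallest p of the interaction and the Y-linked genes. It passed over 4 predicted symbols, of which Gm45837 and Gm10131 were singled out after their values were seen. Ltbp2, Ltbp3, Fbn2, Eln, Fbln5, Loxl1 and some other list members are likewise outside it.

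On simulated data of 12060 genes with 50 changed at each fold, 24% were recovered at 1.25-fold and 60% at 1.5-fold. Recovery was 88% at 2-fold and 100% at 3-fold, and 4.22% of calls fell on unchanged genes. The changed genes were drawn only from those at higher levels, and the noise was normal and independent between genes. Recovery of genes at low levels, or with fewer changed genes, was therefore not measured. Whether same-numbered cultures deviate together could not be decided, since with 2 WT libraries the deviations of W5 and W6 mirror each other. The correlations were −0.148 for W5 with M5 and 0.0096 for W6 with M6. For unlike numbers they were 0.148 for W6 with M5 and −0.0096 for W5 with M6, and M7 has no partner. Set 1 was fitted with its animal groups, numbers below or above 7000, as a term. Alternatives covered the filter, the pseudocount, the scaling, the empirical Bayes step, the libraries in the fit, a replicate block and each library left out. Promoters came from RefSeq on GRCm38.p6.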

Additional observations from a re-analysis of the deposited data

Results flagged for a closer look

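The difference between G234D and WT was not the same in the 2 sets for Col7a1, the gene of the anchoring fibrils of the skin. The interaction term of limma, set 2 minus set 1, was 0.76 (adjusted p = 0.0410). In set 2 the 3 G234D libraries lay above both WT libraries with a difference of 0.19, and in set 1 the difference was −0.57. The sets were also unlike in Y-linked expression, and its part in this result was not tested.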

How the results depend on the processing

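The single call of set 2 depended on the settings. The number of genes called was 0 without a filter, 0 without the mean-variance trend and 0 with Pde2a and Gm45837 summed (an alternative added after the data were seen), and 0 to 14 with 1 library left out: 0 without W5 or W6, 1 without M5, 14 without M6 and 2 without M7. With a replicate block 21 genes were called, 6 higher and 15 lower; that fit has 1 residual degree of freedom among the libraries. The adjusted p of Gm45837 was 0.122 without a filter, 0.152 without the trend, 0.422 with all 13 libraries in the fit, 0.174 without W5 and 0.239 without W6. Genes higher in G234D at an unadjusted p under 0.05 numbered 317 with median-of-ratios scaling, 330 with quantile normalization, 319 with the replicate block and 218 to 594 with 1 library left out; those lower numbered 414 with median-of-ratios scaling and 127 to 348 with 1 left out, the lowest of each without W6. The interaction called 0 genes with set 1 as 1 stratum and 0 without the robust step, and set 1 called 0 genes without its animal groups. Some small values changed sign: mt-Co1 was −0.021 without W6, Ppbp was 0.019 without W6 and 0.20 without M6, and Kdm6a was −0.016 without W6 (their ranges with 1 library left out were −0.23 to 0.20 for Ppbp and −0.016 to 0.14 for Kdm6a). In these cases the cause was not tested. Over the named genes, with Gm45837 and Gm10131, 2409 values kept their direction and side of the threshold. Of the rest 22 passed it, 5 no longer did and 4 changed sign. Only Gm45837 was called in the main fit, so for the other genes keeping the side means staying uncalled. The filter and the empirical Bayes step leave a difference as it is, so no direction could change there. Of 392 list medians 349 moved by less than the spread between replicates. Summed Y-linked expression as a covariate was not run, since those genes are listed at 0 in all 5 libraries.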

Other observations

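Pax3, a transcription factor of muscle and melanocyte precursors, stood at 3.64 and 1.81 TPM in W5 and W6 and at 5.45, 5.41 and 7.51 TPM in M5, M6 and M7, a difference of 0.97 (SE 0.22, limma adjusted p = 0.617). Sox2, a marker of some dermal papillae and of Schwann cells, stood at 0.787 and 0.507 TPM in WT and at 2.05, 1.27 and 1.19 TPM in G234D. Hoxb3 and Emx2, positional genes, differed by 0.30 and 0.24, and of 50 positional genes tested 25 were positive and 25 negative. The integrin genes Itga4, Itga7 and Itgb3 differed by 0.54, 0.32 and 0.22. They made up the 3 of 14 integrins at an unadjusted p under 0.05, all higher (21.4%, beside 4.23% of all genes). In set 1 these integrin genes differed by −0.074, 0.32 and −0.42. Cd36, a fatty acid receptor, stood at 1.11 and 0.913 TPM in WT and at 2.27, 1.86 and 1.92 TPM in G234D. The genotypes did not overlap for any of these 8 genes, and none was called. Of the positional genes 16% were higher and 4% lower without overlap, beside 16.6% and 7.02% of all genes. For the integrins these shares were 21.4% and 0%.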
